A study of Mus musculus with 2 samples.

Results

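Vascular endothelial growth factor (VEGF) signalling was examined through 9 genes of the embryonic mouse kidney: the ligand genes Vegfa, Vegfb, Vegfc and Pgf, the receptor kinase genes Flt1, Kdr and Flt4, and the co-receptor genes Nrp1 and Nrp2. They were chosen by name, as the ligand and receptor genes of the pathway, and looked up by gene identifier among the 43346 genes of the deposited tables, where all 9 had a match. The samples were whole kidneys at embryonic day 14.5 from wild-type animals of strain B6NCrl, with no treatment or altered allele named in the labels. Total RNA from both kidneys of 1 embryo went into each of the 2 libraries, with an input of 10 ng and a size above 200 nt, and collection dates differed by 2 days. The labels give mixed sex for each sample although they describe a single embryo. Both are replicates of a single group, so levels and their spread are described and no condition was tested.

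VEGF ligands are secreted dimers that bind receptor tyrosine kinases on endothelial cells. VEGF-A acts through the receptors encoded by Kdr (VEGFR2, the main signalling receptor of blood endothelium) and Flt1 (VEGFR1, which binds VEGF-A tightly and signals weakly). Among the receptor kinases, VEGF-B and placental growth factor bind VEGFR1 only, and VEGF-C acts mainly through VEGFR3, the product of Flt4. In the developing kidney, VEGF-A from podocytes and other epithelial cells draws endothelial cells into the glomerulus. Alternative splicing decides how far VEGF-A diffuses, because exons 6 and 7 encode stretches that bind heparan sulphate, and a soluble form of VEGFR1 acts as a trap for the ligand.

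The tables held 29718428 expected counts (estimated reads) for replicate 1 and 29204212 for replicate 2, and 28429080 and 27758872 of these fell on genes. Levels are given as TPM, a relative transcript abundance scaled by length and so allows genes to be compared. Values of replicate 1 come before those of replicate 2, and means are given ± SD (n = 2). Genes that define the kidney were all present, with Wt1 at 105 ± 33.4 TPM, Pax2 at 38.3 ± 8.27 TPM, Six2 at 17.6 ± 2.40 TPM, Foxd1 at 15.3 ± 4.17 TPM and Ret at 8.07 ± 4.24 TPM. Whole tissue was sequenced, so fewer cells of a type and less RNA per cell cannot be told apart.

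The bases that separate the splice forms are shown first, since the isoform results turn on them. They are coding sequence from GENCODE release M21 on GRCm38 (the assembly also named mm10), read 5′ to 3′ on the minus strand, on which Vegfa, Flt1 and Vegfb all lie. For Vegfa on chromosome 17, exon 5 (46024065 to 46024094) is in lower case at the start of each line. Capitals mark exon 8 (coding part, 46018861 to 46018879) in Vegfa-201, exon 7 (46020991 to 46021122, 132 nt) in Vegfa-202, and exon 6 (46022277 to 46022348, 72 nt) in Vegfa-207, in which 30 bases of exon 7 follow.
Vegfa-201: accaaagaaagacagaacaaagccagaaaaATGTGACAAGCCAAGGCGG
Vegfa-202: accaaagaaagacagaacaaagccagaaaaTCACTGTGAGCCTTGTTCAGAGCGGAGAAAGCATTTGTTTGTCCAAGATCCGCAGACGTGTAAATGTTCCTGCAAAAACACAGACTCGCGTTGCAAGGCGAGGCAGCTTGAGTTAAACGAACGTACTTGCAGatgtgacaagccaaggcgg
Vegfa-207: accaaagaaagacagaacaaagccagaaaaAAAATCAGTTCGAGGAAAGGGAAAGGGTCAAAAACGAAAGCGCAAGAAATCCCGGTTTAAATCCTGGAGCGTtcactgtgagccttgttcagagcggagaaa

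For Flt1 on chromosome 5, the last 30 bases of exon 13 are in lower case. Capitals mark the first 30 bases of exon 14 in the full-length form, transcript ENSMUST00000031653.7 (147634494 to 147634523), and the 92 coding bases of intron 13 that the soluble form, ENSMUST00000110529.3, reads into (147639133 to 147639224).
Flt1 full-length: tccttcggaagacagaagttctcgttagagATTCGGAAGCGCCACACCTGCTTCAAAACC
Flt1 soluble: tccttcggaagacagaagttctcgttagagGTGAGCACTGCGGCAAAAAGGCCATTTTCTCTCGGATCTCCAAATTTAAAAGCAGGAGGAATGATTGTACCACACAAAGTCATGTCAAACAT

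For Vegfb on chromosome 19, the line shows the 101 bases of exon 6 (6985496 to 6985596) that the longer coding form holds and the shorter one skips.
Vegfb-201: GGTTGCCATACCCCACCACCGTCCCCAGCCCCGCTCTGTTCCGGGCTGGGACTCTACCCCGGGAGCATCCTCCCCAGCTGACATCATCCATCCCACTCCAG

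All 9 genes reached 1 TPM in both libraries, where 59.0% of the 21474 protein-coding genes and 33.1% of all genes did. Their mean levels ran from 4.79 TPM for Nrp2 to 51.9 TPM for Nrp1.

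Among the ligands, Vegfb stood highest and Vegfa lowest. Vegfb (ENSMUSG00000024962.9, chromosome 19, 6982473 to 6987651), a ligand of VEGFR1, received 634 and 720 counts and stood at 30.1 and 29.9 TPM (29.97 ± 0.170), close together on TPM though not on FPKM or after TMM scaling. Pgf (ENSMUSG00000004791.6, chromosome 12, 85166635 to 85177790), the placental growth factor, had 348 and 516 counts and 12.0 and 15.5 TPM (13.7 ± 2.42). Vegfc (ENSMUSG00000031520.5, chromosome 8, 54077606 to 54187096), the lymphangiogenic ligand, had 286 and 349 counts and 8.22 and 8.70 TPM (8.46 ± 0.339). None of these 3 ligands had a lower count in replicate 2.

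Vegfa (ENSMUSG00000023951.12, chromosome 17, 46016993 to 46032369) had 358 and 495 counts and 5.97 and 7.69 TPM (6.83 ± 1.22), and 24.4% of the protein-coding genes detected in both libraries had a lower mean. The deposited credibility interval of its level, whose confidence is not given, ran from 6.06 to 8.38 TPM in replicate 1 and from 7.35 to 9.33 TPM in replicate 2. The TPM of replicate 1 thus lay just under its own interval, which belongs to the deposited posterior mean of 7.19 TPM. The intervals of the libraries overlapped. Vegfd, a further ligand gene whose product binds VEGFR3 in mice and which was not among the 9, stood at 15.2 and 11.9 TPM (13.6 ± 2.31).

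Among the receptor kinases, Kdr stood highest and each of the 3 was higher in replicate 1. Kdr (ENSMUSG00000062960.7, chromosome 5, 75932827 to 75978458) had 3495 and 1786 counts and 30.9 and 13.7 TPM (22.3 ± 12.1). Flt1 (ENSMUSG00000029648.9, chromosome 5, 147561604 to 147726011) had 1556 and 1020 counts and 14.9 and 8.63 TPM (11.7 ± 4.41). Flt4 (ENSMUSG00000020357.3, chromosome 11, 49609263 to 49652739), whose product is found on lymphatic endothelium and, in embryos, on sprouting and fenestrated blood vessels, had 968 and 667 counts and 8.30 and 4.86 TPM (6.58 ± 2.43). For each of the 3 the credibility intervals of the libraries did not overlap, with the widest gap for Kdr, at 29.02 to 31.0 TPM against 12.8 to 14.02 TPM. This was not particular to the receptor kinases. The intervals of Nrp1 and Nrp2 did not overlap either, nor did those of Pgf, which was higher in replicate 2 (10.5 to 12.9 against 13.8 to 16.4 TPM). The share of all genes with intervals apart in this way was not counted, so nothing particular to the VEGF genes follows. On TPM 74.7% of the genes that could be called were lower in replicate 2.

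The neuropilins, which bind heparin-binding VEGF forms and class 3 semaphorins, differed from each other by an order of magnitude. Nrp1 (ENSMUSG00000025810.8, chromosome 8, 128358604 to 128503363), a co-receptor of VEGFR2 that is also made by neurons and mesenchyme, had 6636 and 5908 counts and 58.6 and 45.2 TPM (51.9 ± 9.46), and 77.8% of detected protein-coding genes were lower. Nrp2 (ENSMUSG00000025969.11, chromosome 1, 62703285 to 62818695), a co-receptor of VEGFR3, had 603 and 489 counts and 5.54 and 4.03 TPM (4.79 ± 1.07). Nrp1 was first and Nrp2 last of the 9 in both libraries.

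**Figure D1:**
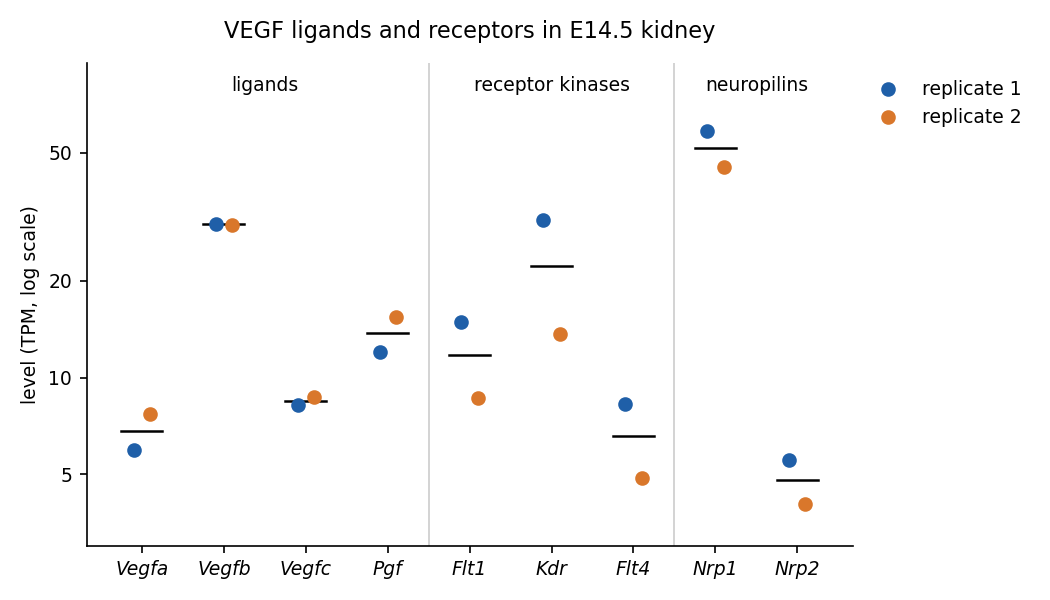
Level of each gene in TPM on a log axis, for replicate 1 and replicate 2 (points) with their mean (bar). Nrp1 is the highest in both libraries, and on this scale the 3 receptor kinases and both neuropilins sit lower in replicate 2 while Vegfa and Pgf sit higher; relative to genes of their length the neuropilins sit higher.

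In order of mean level the genes ran Nrp1, Vegfb, Kdr, Pgf, Flt1, Vegfc, Vegfa, Flt4 and Nrp2. Of the 8 pairs of neighbours in this order, the library values of Nrp1 and Vegfb did not overlap, nor did those of Vegfc and Vegfa. The other 6 pairs overlapped, so their order is not settled by 2 libraries. That of Vegfc and Vegfa is not settled either, since on posterior mean TPM Vegfc stood at 8.02 and 8.51 and Vegfa at 7.19 and 8.29, which overlap, as do their credibility intervals within each library. Kdr ranked 2 in replicate 1 and 4 in replicate 2, and Pgf 5 and 3.

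Summed over genes, the 4 ligands held 56.3 and 61.7 TPM (59.0 ± 3.80), the 3 receptor kinases 54.1 and 27.2 TPM (40.6 ± 19.0) and the neuropilins 64.1 and 49.2 TPM (56.6 ± 10.5). The ligand sum was close to the receptor sum in replicate 1 and above it in replicate 2. It leaves out Vegfd, at 15.2 and 11.9 TPM, so the closeness in replicate 1 holds for these 4 ligands only. Ratios within a library do not depend on its scaling. Vegfa stood at 0.193 and 0.561 of the level of Kdr, its main receptor, and at 0.402 and 0.891 of that of Flt1. Kdr exceeded Vegfa 5.17-fold in replicate 1 and 1.78-fold in replicate 2.

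Of the ligands of VEGFR1, only Vegfb stood above the level of the whole receptor gene in both libraries. Vegfb exceeded Flt1 2.02-fold and 3.46-fold (2.74 ± 1.01), while Pgf stood at 0.810 and 1.79 of Flt1, on either side of equality. The Flt1 level includes transcripts annotated as not coding, which held 25.2 and 26.6% of it. Against the full-length form alone, at 7.02 and 3.49 TPM, Pgf stood higher in both libraries, at 12.0 and 15.5 TPM. Vegfa, at 5.97 and 7.69 TPM, lay on either side of that form. Vegfc and its receptor gene Flt4 were at a ratio of 0.990 and 1.79 (1.39 ± 0.566), which leaves out Vegfd, a further ligand gene of VEGFR3. Kdr exceeded Flt1 2.08-fold and 1.59-fold (1.83 ± 0.347).

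Ratios within a role differed less between the libraries, relative to their means, than those of ligand to receptor. The latter pair shorter ligand genes with longer receptor genes, and differences between the libraries moved with gene length, as given below. The part of length in this contrast was not tested. Nrp1 exceeded Nrp2 10.6-fold and 11.2-fold (10.9 ± 0.452), Pgf exceeded Vegfa 2.02-fold and 2.01-fold (2.01 ± 0.00422), and Vegfb exceeded Vegfa 5.04-fold and 3.88-fold (4.46 ± 0.819). On the posterior mean TPM, however, Pgf exceeded Vegfa 1.73-fold, so the close match of the libraries in this ratio does not show its accuracy.

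Of the 11 Vegfa transcripts in the tables, 3 coding ones carried most of the level, and those that do not code held 1.84 and 10.1%. Vegfa-211 held 3.32 and 4.02 TPM, which was 55.6 and 52.2% of the gene (53.9% ± 2.38). Vegfa-201 held 1.35 and 1.74 TPM, 22.6 and 22.6% of the gene. Vegfa-202, the form with exon 7, held 1.19 and 1.15 TPM, 19.9 and 15.0% of the gene (17.5% ± 3.49).

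Counted from the start codon that Vegfa-201 uses and without a signal peptide of 26 residues, Vegfa-201 encodes a protein of 120 residues, which lacks exons 6 and 7, and Vegfa-202 one of 164 residues, the form often found to be the most abundant in mouse tissues. Vegfa-211 also lacks both exons in the reference and encodes 120 residues by the same count. Vegfa-202 and Vegfa-211 are both annotated from an upstream start, which gives 368 and 324 residues. By the exons of the reference, forms without exons 6 and 7 held 78.2 and 74.9% of the Vegfa level (76.6% ± 2.35).

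That share depends on Vegfa-211, whose structure in the deposited tables is not certain. The tables list it at 3324 nt and the reference at 975 nt, so the annotation release behind the tables gave it other ends. Vegfa-202 without exon 7 would be 3319 nt, 5 nt short of the listed length, but other exon sets could also give that length. If Vegfa-211 held exon 7, forms without both exons would hold 22.6% and forms with exon 7 71.4%. Over the Vegfa transcripts of equal length in both sources, the share without exons 6 and 7 was 49.2%, against 38.1% with exon 7. Which form led is therefore not settled by these tables.

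The depth behind the split was small as well, with 209 and 292 expected counts for Vegfa-211, 70.1 and 104 for Vegfa-201 and 77.8 and 87.0 for Vegfa-202. The credibility interval of Vegfa-202 ran from 0.000226 to 1.72 TPM in replicate 1 and from 0.355 to 2.72 TPM in replicate 2. That of Vegfa-201 ran from 0.132 to 2.33 TPM and from 0.611 to 2.79 TPM, so the 2 could not be ranked within a library.

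By the exons of the reference, exon 6, which anchors VEGF-A in the matrix most firmly, was not detected in a coding form. That too rests on Vegfa-211 as it stands in the reference, since its structure in the deposited tables is not certain. Vegfa-203, Vegfa-204 and Vegfa-207, which encode 144, 182 and 188 residues by the same count, were listed at 0 counts in both libraries. For replicate 1 their upper credibility bounds were 0.999, 0.685 and 0.593 TPM, and for replicate 2 they were 0.461, 0.316 and 0.220 TPM, so levels below these bounds were not detectable at this depth. The remaining 5 transcripts retain an intron and do not code. Of these, Vegfa-205 was at 0 and 0.59 TPM, Vegfa-206 at 0.11 and 0 TPM and Vegfa-209 at 0 and 0.19 TPM, each from at most 10.4 counts. Vegfa-208 and Vegfa-210 were at 0 in both. Vegfa-206 is the only holder of exon 6 among these 5.

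**Figure D2:**
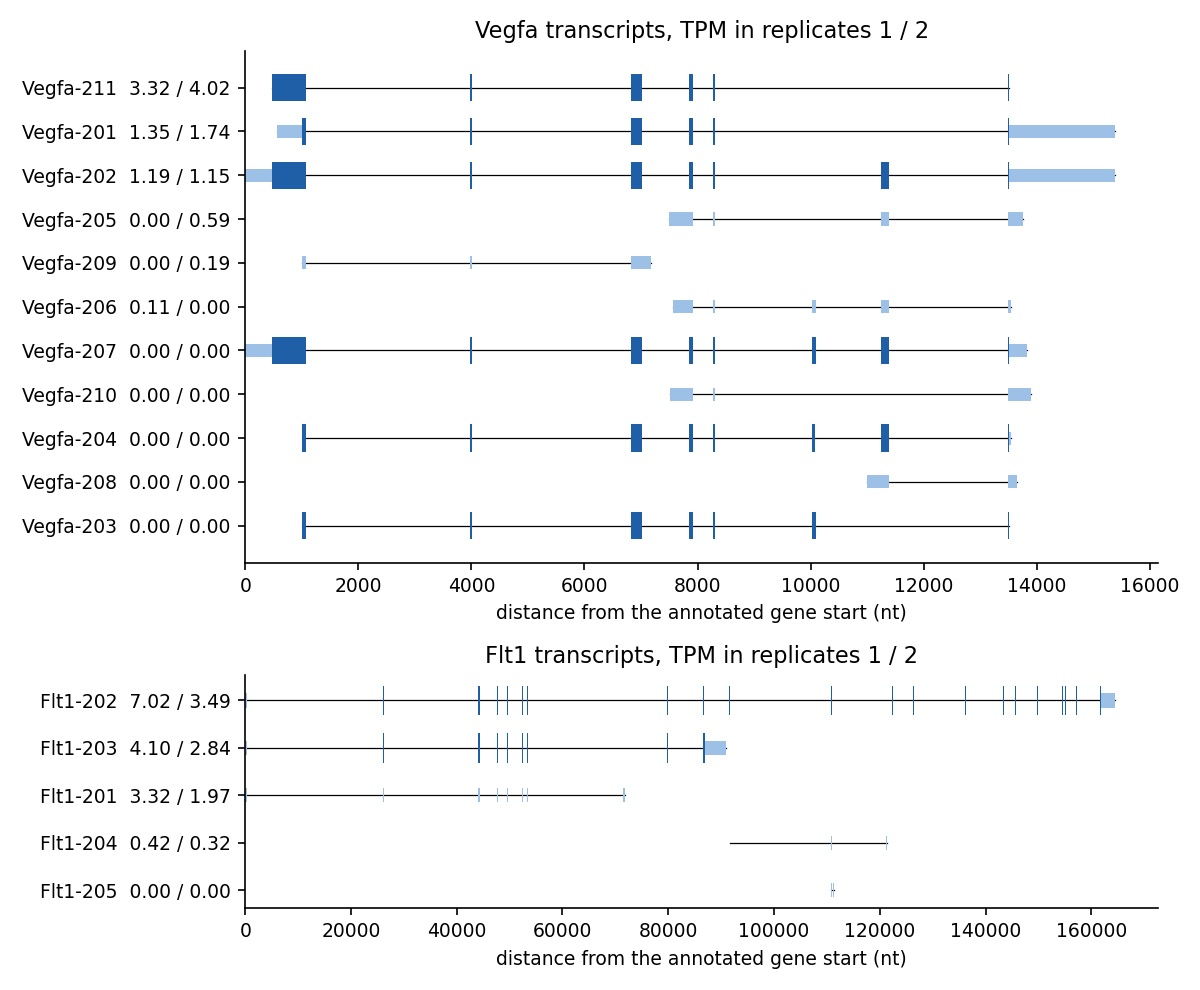
Exons of the annotated Vegfa and Flt1 transcripts in the reference, as distance in nt from the annotated start of the gene, with the TPM of replicates 1 and 2 beside each name. Dark blocks are coding and light blocks are not; of the Vegfa forms above 1 TPM in both libraries, only Vegfa-202 holds exon 7 in this reference, and Vegfa-211 is drawn as in the reference although the tables list it as longer.

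Flt1 was divided among 3 transcripts. The full-length form, with 1333 residues, held 7.02 and 3.49 TPM, which was 47.3 and 40.5% of the gene (43.9% ± 4.80). The soluble form, which ends in intron 13 after 688 residues and lacks the transmembrane and kinase parts, held 4.10 and 2.84 TPM, 27.6 and 33.0% of the gene (30.3% ± 3.79). Of these 2 coding forms the soluble one took 36.9 and 44.9% (40.9% ± 5.65). The full-length form led in both libraries. The credibility intervals of these forms did not overlap in replicate 1 (6.29 to 7.37 against 3.52 to 4.44 TPM) and overlapped in replicate 2 (3.07 to 3.797 against 2.45 to 3.16 TPM).

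The soluble form ends in 4066 nt that are intron in the full-length form, 92 of them coding. Unspliced Flt1 RNA would hold the same bases, and its part in the soluble share was not tested. ENSMUST00000031652.3, a shorter transcript annotated as not coding, held 3.32 and 1.97 TPM, 22.3 and 22.8% of the gene. ENSMUST00000125272.1 was at 0.42 and 0.32 TPM from 2.41 and 2.16 counts, and ENSMUST00000142477.1 at 0 in both libraries.

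Kdr showed almost no such division among its listed transcripts. Kdr-201, the full-length receptor of 1345 residues, held 30.6 and 13.5 TPM, 99.01 and 98.59% of the gene, and Kdr-202, which retains an intron and does not code, held 0.30 and 0.19 TPM. No soluble coding form of Kdr was among the 2 Kdr transcripts of the tables. Such a form could therefore receive no level, and the full-length share does not measure it. Flt4 was likewise carried by its full-length transcript of 1363 residues, at 93.3 and 97.6%.

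Vegfb was shared between both of its coding forms. Vegfb-201, with the bases shown above, encodes 186 residues without a signal peptide of 21 residues and held 15.6 and 13.3 TPM, 51.9 and 44.4% of the gene. Vegfb-202 encodes 167 residues, a form that binds heparan sulphate, and held 12.6 and 14.8 TPM, 41.9 and 49.5% of the gene. The leading form changed between the libraries, and the credibility intervals of the forms overlapped in both, at 11.7 to 19.1 against 8.09 to 16.2 TPM in replicate 1 and 9.89 to 16.9 against 10.2 to 17.9 TPM in replicate 2.

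Nrp2 has coding forms with either of 2 cytoplasmic tails. Forms with the a tail, which ends in a motif bound by PDZ proteins, held 51.4 and 46.9% of the gene, and those with the b tail 39.3 and 42.2%. The a form ENSMUST00000102822.4 led at 2.40 and 1.76 TPM (43.5% ± 0.283). The b forms ENSMUST00000027112.8 and ENSMUST00000114155.3 followed at 1.36 and 1.24 TPM (27.6% ± 4.49) and at 0.82 and 0.46 TPM (13.03% ± 2.43). ENSMUST00000126344.1, which does not code, held 9.39 and 10.8%. The TPM of the leading a form lay above its own upper credibility bounds of 2.12 and 1.61 TPM, while ENSMUST00000075144.7, of the same tail, was at 0 with upper bounds of 2.07 and 1.49 TPM, so the split between these was uncertain. Vegfc, Pgf and Nrp1 had 1 transcript each in the tables.

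At least 2 transcripts and 5 TPM in both libraries were found for 4 of the 9 genes, and 3 of these 4 kept the same leading transcript, Vegfb being the exception. Among all 7589 such genes 89.2% did.

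**Figure D3:**
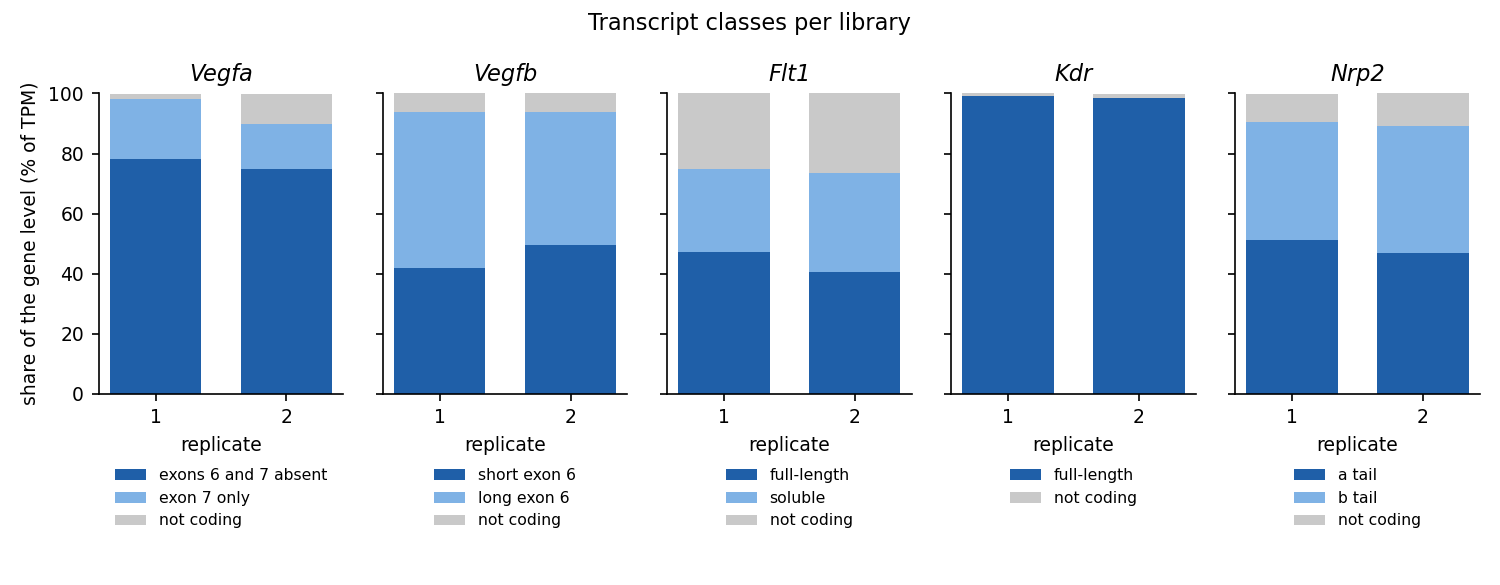
Share of each gene's TPM (%) held by classes of its transcripts, for replicates 1 and 2, with bars from 0 to 100. Kdr, for which no soluble coding form is listed, is nearly all full-length, and Flt1 is split between full-length, soluble and non-coding transcripts. The Vegfa class without exons 6 and 7 includes Vegfa-211, whose structure is uncertain.

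Differences between the libraries are given on TPM first and then on other scales, since their sizes and order changed with the scale. A gene was called apart when its (TPM + 1) values differed at least 2-fold and the higher was at least 5 TPM; with 1 library on each side this is a rule of size, not a test, and the added 1 TPM understates differences of low genes. Kdr was the only member called, at a log2 ratio of replicate 2 over replicate 1 of -1.12. Of 11480 genes that could be called, 5.56% were called, 4.56% as lower in replicate 2. Flt1 had a log2 ratio of -0.72, Flt4 of -0.67, Nrp2 of -0.38 and Nrp1 of -0.37, the last pair turning to 0.21 and 0.22 relative to genes of their own length. Vegfb was at -0.01 (0.21 on FPKM and 0.29 after TMM scaling), Vegfc at 0.07, Vegfa at 0.32 and Pgf at 0.34.

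In shares of all gene counts, with exact conditional binomial 95% intervals that cover counting error only, Kdr had 0.523 of its replicate 1 share in replicate 2 (0.494 to 0.554), Flt1 0.671 (0.620 to 0.727) and Flt4 0.706 (0.638 to 0.780). Pgf had 1.52 (1.32 to 1.74) and Vegfa 1.42 (1.23 to 1.63). Nrp1 had 0.912 (0.880 to 0.944), Nrp2 0.831 (0.736 to 0.937), Vegfb 1.16 (1.04 to 1.30) and Vegfc 1.25 (1.07 to 1.47). These shares are one scale among several, and the intervals leave out the spread between embryos and between library preparations. The Kdr call depended on the scale: the log2 ratio was -0.88 on FPKM, -0.80 on counts scaled by TMM and -0.80 by DESeq2 size factors, none of which reached 2-fold. The ratio of all genes moved too, with a median of -0.29 on TPM and 0.03 after TMM scaling. Relative to those medians Kdr was at -0.83 on both scales. On TPM 82.0% of all calls were lower in replicate 2, against 44.3% on FPKM, 29.4% after TMM or DESeq2 scaling and 67.7% with 5 TPM added in place of 1 TPM.

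Gene length moved with these differences. The median log2 ratio was -0.01 over 4711 genes under 2000 nt, -0.37 over 2876 genes of 2000 to 3000 nt, -0.58 over 2875 genes of 3000 to 5000 nt and -0.59 over 740 genes of 5000 to 7000 nt. The 5 receptor and co-receptor genes are between 5405 and 6133 nt long in the tables, and Vegfb, Pgf and Vegfc between 1174 and 1881 nt. Flt1, Flt4, Nrp1, Nrp2, Vegfb and Vegfc lay in the middle 50% of genes of their own length range. Kdr lay 0.52 below the median of its range, with 5.41% of those genes lower still, and 11.2% of them were called lower in replicate 2, against 9.57% of genes of 3000 to 5000 nt, 2.02% of those of 2000 to 3000 nt and 1.87% of shorter ones. Vegfa, at a mean length of 3065 nt, lay 0.89 above the median of its range, with 98.5% of those genes lower. Its length was 3171.8 nt in replicate 1 and 2957.5 nt in replicate 2. By the latter it falls in the range of 2000 to 3000 nt, whose median of -0.37 is closer to its own ratio. Its posterior mean TPM, at 7.19 and 8.29, also differed less between the libraries than its TPM, at 5.97 and 7.69. Pgf lay 0.35 above, with 85.9% lower. The part of length in the members' differences was not tested.

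**Figure D4:**
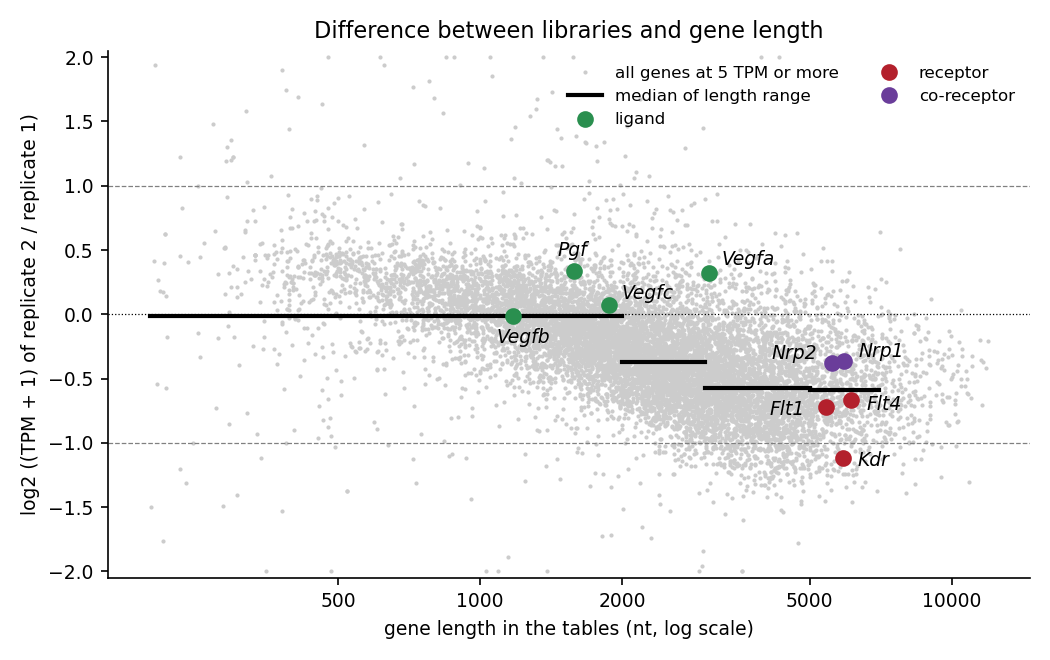
Log2 of (TPM + 1) in replicate 2 over replicate 1 against gene length in nt (log axis) for genes with at least 5 TPM in the higher library (grey, lengths from 200 to 12000 nt, values beyond -2 or 2 drawn at the edge), with medians of length ranges (black) and the 9 genes (coloured by role). Kdr lies below the dashed line of a 2-fold difference, and Vegfa, whose length is near the lower edge of its range, lies above 98.5% of genes of 3000 to 5000 nt.

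Markers of blood endothelium, the main site of these receptors, were all detected, 16 of 16, and none was at 0 counts. Ramp2, an adrenomedullin receptor component, stood at 205 ± 8.39 TPM, Egfl7 at 141 ± 7.64 TPM and Plvap, of fenestrated vessels, at 91.1 ± 6.83 TPM, and the transcription factor gene Erg was lowest at 4.07 ± 0.898 TPM. Directions of lists depended on scaling, since 74.7% of all genes were lower in replicate 2 on TPM and 49.0% after TMM scaling. The summed endothelial level was 867 and 810 TPM, with 12 of 16 markers lower in replicate 2 on TPM and 10 after TMM scaling (median log2 ratio on TPM -0.36, against -0.29 for all genes). Kdr was 3.56 and 1.69% of that sum (2.63% ± 1.32), Flt1 1.71 and 1.06% (1.39% ± 0.459) and Flt4 0.958 and 0.600% (0.779% ± 0.253). Nrp1 was 6.76 and 5.57% of it and Nrp2 0.639 and 0.497%.

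The endothelial sum differed less between the libraries than the receptor sum. The 7 endothelial markers over 3000 nt, a division chosen after the values were seen, summed to 175 and 118 TPM, all 7 lower in replicate 2 on TPM, and the 9 shorter ones held 692 and 692 TPM. Tek, the angiopoietin receptor and the one marker of the list called apart on TPM and not after TMM scaling, had 22.8 and 10.6 TPM. Pecam1 had 37.3 and 27.2 TPM and Cdh5, which forms endothelial junctions and associates with VEGFR2, 28.5 and 23.7 TPM. Both genes were chosen after their values were seen.

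Markers of other cells that make or bind VEGF were also present. Of the lymphatic list 4 of 5 were detected, Pdpn (also made by podocytes) at 36.9 ± 1.98 TPM, Mmrn1 at 4.58 ± 1.63 TPM and Lyve1 (also on macrophages) at 2.48 ± 0.622 TPM; Prox1, the transcription factor that defines lymphatic fate, was at 0.95 and 0.62 TPM. The sum of the list was 50.2 and 43.9 TPM, with 4 of 5 lower in replicate 2 on TPM and 3 after TMM scaling. Podocyte markers, 9 of 9 detected, summed to 434 and 414 TPM, with Tcf21 (also stromal) at 274 ± 21.1 TPM, Foxc2 at 38.7 ± 3.53 TPM, Cd2ap at 30.5 ± 9.42 TPM and Nphs1 lowest at 2.61 ± 0.0566 TPM. Of the podocyte markers 8 of 9 were lower in replicate 2 on TPM and 5 after TMM scaling.

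Mural markers, 5 of 5 detected, summed to 236 and 138 TPM, led by Acta2 at 76.6 ± 30.4 TPM, Ren1 at 55.1 ± 24.6 TPM and Pdgfrb at 25.3 ± 10.6 TPM, with Cspg4 lowest at 7.76 ± 1.68 TPM. Macrophage markers, 5 of 5 detected, summed to 66.1 and 55.9 TPM, led by C1qb at 29.2 ± 1.93 TPM, Tyrobp at 19.3 ± 0.948 TPM and Csf1r at 6.97 ± 3.17 TPM, with Adgre1 lowest at 2.55 ± 1.77 TPM. On TPM all 5 mural and 4 of 5 macrophage markers were lower in replicate 2, and after TMM scaling 4 and 3 were. The part of these cell types in the levels of the members was not tested.

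Other genes of the pathway were taken by role. The neuropilins also serve the class 3 semaphorins, which compete with VEGF-A for Nrp1, together with plexins. Of 12 such genes 9 were detected, at a median level of 12.1 TPM. Sema3c led at 67.1 ± 20.7 TPM, followed by Sema3f, a ligand of Nrp2, at 26.9 ± 4.24 TPM and Plxnd1, the endothelial plexin, at 24.7 ± 4.65 TPM, and Sema3g was lowest at 0.46 ± 0.0566 TPM. All 12 were lower in replicate 2 on TPM and 10 after TMM scaling, and none was called apart (median log2 ratio on TPM -0.58).

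Upstream of Vegfa, oxygen-sensing genes were detected for 8 of 8 members. Hif1a, which encodes the oxygen-regulated activator of Vegfa, led at 69.3 ± 29.03 TPM, followed by the prolyl hydroxylase gene Egln2 at 27.3 ± 3.5002 TPM and Vhl at 25.7 ± 8.96 TPM, and Epas1 (HIF-2 alpha) was lowest at 8.28 ± 2.60 TPM. Arnt, the partner of both HIF subunits, was called apart on TPM, at 27.6 and 11.6, and not after TMM scaling. All 8 were lower in replicate 2 on TPM and 5 after TMM scaling (median log2 ratio on TPM -0.54).

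Splicing regulators that have been tied to Vegfa splice choice were all detected, 6 of 6, and stood above every member of the VEGF set. Srsf2 was at 785 ± 59.2 TPM, Srsf1 at 263 ± 94.99 TPM and Srsf5 at 260.3 ± 1.02 TPM, and the kinase gene Srpk1 was lowest at 90.2 ± 14.4 TPM. None was called apart, and 5 of 6 were lower in replicate 2 on TPM against 2 of 6 after TMM scaling.

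Downstream of the receptors, 25 of 26 signalling genes reached the floor, and the median level of the list was 21.1 TPM. Map2k2, which encodes a kinase of the MAP kinase cascade, was among the highest at 150.4 ± 15.9 TPM, and the adaptor gene Sh2d2a was lowest with 7 counts and 1 count. None of the 26 was called apart, and 23 were lower in replicate 2 on TPM and 14 after TMM scaling (median log2 ratio on TPM -0.35). Most of these genes serve many receptors.

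Extracellular modulators and proteases were detected for 12 of 13 genes. The matrix metalloproteinase genes Mmp14 and Mmp2 were at 100.3 ± 40.3 and 91.1 ± 16.0 TPM and Adamts1, whose product binds VEGF-A, at 41.6 ± 19.8 TPM, and Mmp9 was lowest at 1.13 and 0.56 TPM. Thbs1, an inhibitor of angiogenesis, was called apart at 18.8 and 7.70 TPM, as was Pcsk7, a convertase, at 11.1 and 4.87 TPM, neither of them after TMM scaling. Of the 13 genes 12 were lower in replicate 2 on TPM and 11 after TMM scaling. In the angiopoietin axis, which stabilises vessels beside VEGF, 4 of 5 genes were detected. The receptor genes Tie1 and Tek were at 21.1 ± 3.88 and 16.7 ± 8.63 TPM, the ligand gene Angpt1 at 11.4 ± 0.955 TPM, and Angpt4 was lowest at 0.85 and 0.75 TPM. All 5 were lower in replicate 2 on TPM and 3 after TMM scaling.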

How the data were processed

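The authors deposited, per the file headers, a gene table and a transcript table for each of 2 libraries. Per the deposited file descriptions, reads were quantified on mm10 with GENCODE release M4; the sources used here name no aligner or counter and do not say whether strand was used. The labels link a SmartSeq protocol. The deposited expected counts are estimated reads per feature, the deposited TPM and FPKM values are scaled by length and depth by the authors, the deposited credibility bounds are a signal on the TPM scale at a level not given, and the deposited isoform percent is a transcript's share of its gene's TPM. The deposited gene lengths are weighted over transcripts.

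Symbols, coordinates and exons came from GENCODE M21 on GRCm38, which matched 42462 of 43346 genes. Of 33 transcripts of the members, 30 had equal length in both sources; those of Vegfa-211, Vegfc and Nrp1 differed. Transcripts were classed by coding exons. Features named only by a number (26248) were left out. Genes that overlap members were Mir1903 in Nrp1 (0 counts) and Gm29083 and Gm37121 in Nrp2 (at most 27 counts). Detection meant 1 TPM in both libraries. With 2 samples of 1 group nothing was tested, no pattern of likeness over conditions exists, and the SD is the spread between these samples. No molecular identifiers are named in the sources used here, so intervals cover counting error only. TMM factors came from edgeR 4.0.16 and size factors from DESeq2 1.42.0 in R 4.3.3, on counts rounded to whole numbers. Tables were handled with pandas 2.3.3 and numpy 2.4.6, intervals with scipy 1.17.1 and plots with matplotlib 3.10.9, in Python 3.11.15. The size rule was tried on 2 simulated libraries with 4-fold changes. It called 100% of the lowered genes, 97.0% of the raised ones and 1.73% of the unchanged ones. The simulation assumed a coefficient of variation of 0.2 and held no shift with gene length, so these rates need not hold for the libraries here.

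Members and gene lists were chosen with earlier results of these data known. Named were all members, all transcripts of Vegfa, Flt1 and Kdr, other members' transcripts at 10% or more, and of each list the 3 highest and the lowest gene and any called apart; exceptions are stated, and some genes that this rule names are not reported here. Alternatives covered the TPM estimate, scaling, pseudocount, floor, fold, transcripts included and each replicate left out. No set was tested.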

Additional observations from a re-analysis of the deposited data

How the results depend on the processing

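With 2 libraries every level rests on 2 values, and the forms of Vegfa rest on at most 292 expected counts each. All 9 genes were detected at 0.5 TPM, on posterior mean TPM and in either library alone, and 7 at 5 TPM. Of 1 member called apart, 0 remained on FPKM, TMM or DESeq2 scaling, with a pseudocount of 5 TPM or relative to the length range (chosen after seeing the data), and 3 were called at 1.5-fold (Flt1, Kdr and Flt4). The share of all genes called was 2.43% on FPKM, 2.42% on TMM and 2.42% on DESeq2 scaling, 2.19% with a pseudocount of 5 TPM and 27.1% at 1.5-fold. Vegfb, at -0.01 on TPM, turned to 0.21 on FPKM, and Nrp1 and Nrp2 turned to 0.22 and 0.21 relative to their length range; no other member changed sign in any alternative.

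Pgf over Vegfa was 1.73 on posterior mean TPM. The Vegfa share without exons 6 and 7 was 63.8% on posterior mean TPM, 79.0% on expected counts, 81.5% over coding transcripts, 49.2% over transcripts of equal length and 22.6% with Vegfa-211 counted as holding exon 7 (chosen after seeing the data); with exon 7 it was 38.1 and 71.4% under the last 2. The soluble Flt1 share was 35.4% and the full-length Kdr share 99.4% on expected counts, which are not per length. Leaving out either library gave the other's value, as printed for each result. Removing spike-in, mitochondrial and numbered features raised TPM 1.15-fold and 1.16-fold. No paired analysis was possible because there is only 1 group.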
